A study of Mus musculus with 23 samples.

Results

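The glucose handling genes of the mouse heart are 37 genes, taken by a fixed list of symbols, that carry glucose from the cell membrane through glycolysis to lactate or to pyruvate dehydrogenase and in and out of glycogen. All 37 were found among the 55487 gene identifiers of the files, and all 37 passed the filter on low counts that left 15732 genes. They were followed in poly-A RNA of whole hearts from wild-type C57BL/6J mice, an inbred laboratory strain, all female and 10 weeks old. One arm was sampled on day 1 (3 hearts) and day 7 (4 hearts) after isoproterenol (ISO, 300 mg/kg), a beta-adrenergic agonist, and set against 4 hearts of the ISO baseline. The other arm was sampled on day 1 (4 hearts) and day 7 (4 hearts) after lipopolysaccharide (LPS, 2.5 mg/kg), an outer membrane molecule of bacteria that innate immune cells sense, and set against 4 hearts of the LPS baseline. Both baselines were untreated, and a vehicle injection is not named in the labels. The hearts hold all of their cell types, so a value is an average over cardiomyocytes and every other cell present.

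Glucose enters heart muscle through GLUT4, which insulin and contraction bring to the membrane, and through GLUT1, which is present in most cells and predominates in the fetal heart. Hexokinase traps it as glucose phosphate, phosphofructokinase commits it to glycolysis under the control of an activator made by the PFKFB enzymes, and pyruvate then leaves as lactate or is burned after pyruvate dehydrogenase, which PDK kinases switch off and PDP phosphatases switch on. The adult heart normally draws most of its energy from fatty acids, and many of these steps exist as a muscle or heart isoform beside a widely expressed one, so the isoform pairs are followed here within each library as well.

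The promoters of the 6 members that rose by at least 1 on the log2 scale with either agent on day 1 are shown because those members carry the largest increases and stand in different steps of the pathway. Each is 300 bases, 250 before and 50 after the RefSeq gene start, from RefSeq on GRCm38.p6. Capitals mark matches on either strand to the 6 motifs searched, so that CACGC is a match to GCGTG on the other strand and TGACGTG holds overlapping matches to TGACG and ACGTG.
Slc2a1, chr4:119108495-119108794, plus strand: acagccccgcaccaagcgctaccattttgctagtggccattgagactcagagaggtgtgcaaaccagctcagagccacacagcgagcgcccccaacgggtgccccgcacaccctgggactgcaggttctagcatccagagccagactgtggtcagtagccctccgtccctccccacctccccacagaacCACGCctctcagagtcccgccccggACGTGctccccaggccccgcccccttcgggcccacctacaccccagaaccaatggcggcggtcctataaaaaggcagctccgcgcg
Pfkp, chr13:6648722-6649021, minus strand: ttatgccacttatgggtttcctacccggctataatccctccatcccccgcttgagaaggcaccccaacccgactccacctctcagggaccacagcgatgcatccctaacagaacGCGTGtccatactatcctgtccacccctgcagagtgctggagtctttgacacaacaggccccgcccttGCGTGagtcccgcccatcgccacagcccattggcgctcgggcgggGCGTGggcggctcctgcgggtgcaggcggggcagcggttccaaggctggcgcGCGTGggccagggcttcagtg
Pfkfb3, chr2:11553880-11554179, minus strand: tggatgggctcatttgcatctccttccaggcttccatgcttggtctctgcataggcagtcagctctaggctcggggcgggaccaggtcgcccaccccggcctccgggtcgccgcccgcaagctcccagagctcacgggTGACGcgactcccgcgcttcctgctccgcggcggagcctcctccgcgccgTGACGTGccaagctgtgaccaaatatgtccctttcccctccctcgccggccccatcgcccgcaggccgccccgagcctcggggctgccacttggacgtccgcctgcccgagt
Pgam1, chr19:41911621-41911920, plus strand: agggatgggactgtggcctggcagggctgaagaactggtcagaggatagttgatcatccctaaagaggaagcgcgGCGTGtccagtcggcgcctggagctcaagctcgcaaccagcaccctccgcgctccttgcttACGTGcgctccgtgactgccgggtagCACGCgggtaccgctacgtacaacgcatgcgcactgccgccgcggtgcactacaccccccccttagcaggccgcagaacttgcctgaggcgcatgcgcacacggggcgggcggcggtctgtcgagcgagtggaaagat
Slc16a3, chr11:120948817-120949116, plus strand: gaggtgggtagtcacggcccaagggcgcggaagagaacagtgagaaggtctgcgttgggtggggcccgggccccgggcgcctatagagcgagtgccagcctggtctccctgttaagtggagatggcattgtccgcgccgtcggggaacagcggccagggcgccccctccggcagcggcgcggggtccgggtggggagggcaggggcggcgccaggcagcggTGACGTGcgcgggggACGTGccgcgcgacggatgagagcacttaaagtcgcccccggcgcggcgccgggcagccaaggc
Gbe1, chr16:70313699-70313998, plus strand: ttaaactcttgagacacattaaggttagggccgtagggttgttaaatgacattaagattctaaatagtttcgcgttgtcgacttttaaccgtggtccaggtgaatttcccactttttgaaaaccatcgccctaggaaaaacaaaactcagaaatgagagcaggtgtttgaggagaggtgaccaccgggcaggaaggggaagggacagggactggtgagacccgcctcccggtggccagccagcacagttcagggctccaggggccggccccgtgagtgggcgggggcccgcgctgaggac

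The letters ACGTG and GCGTG, cores of the hypoxia response element, the E-box CACGTG, which contains ACGTG, the cAMP response element TGACGTCA, its shorter form TGACG, which it contains, and the AP-1 site TGANTCA were searched on both strands. Promoters were given for 35 of the 37 members, the others being Slc2a4 and Pdp1. Each member has 1 promoter here, the one whose start lies nearest the 5' end of its gene. For the comparison all 32851 entries were counted, without choosing 1 for each gene. Base composition was not matched between the sets, so the shares below do not show an enrichment of any element. ACGTG stood in 16 of these 35 promoters (45.7%), against 19.6% of all 32851 promoters of the same length. GCGTG stood in 20 (57.1%), against 32.4% of all promoters. TGACG stood in 11 (31.4%), against 20.8% of all, and CACGTG in 4 (11.4%), against 7.15% of all. TGACGTCA occurred in 1 member promoter, that of Ldha (2.86%), against 1.79% of all, and TGANTCA in 0, against 7.81% of all. Among the members whose promoter was read, ACGTG occurred in 4 of the 6 that rose at least 2-fold with either agent and in 3 of the 5 that fell as far. Of the promoters printed above, that of Gbe1 held none of the motifs. A match is a description of letters, not a bound site.

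Each library held between 20910394 and 30368985 reads in genes, and the 37 genes took 1.2 to 1.76% of those reads. Levels are given in CPM (reads scaled to a common library size by TMM), and changes are on the log2 scale with their standard error from edgeR's quasi-likelihood test, called where the adjusted p (Benjamini-Hochberg over all genes tested) was under 0.05. The libraries carried the markers of the labelled tissue. Summed over 9 cardiomyocyte genes, every library held between 46636 and 83539 CPM, while 6 skeletal muscle genes summed to 1.16 to 3.42 CPM. The same cardiomyocyte sum was 54405 to 74108 CPM on ISO day 1, against 76817 to 83539 CPM at the ISO baseline, with 7 of 9 genes lower and 1 higher. It was 46636 to 56414 CPM on LPS day 1, against 70519 to 76100 CPM at the LPS baseline, with 6 of 9 genes lower. The 8 neutrophil genes summed to 4.5 to 11.0 CPM on ISO day 1, against 0.38 to 0.778 CPM at the ISO baseline, where Ly6g and Cxcr2 had 0 reads. On LPS day 1 they summed to 10.6 to 19.2 CPM, against 0.434 to 0.672 CPM at the LPS baseline, where Ly6g had 0 reads. The 8 monocyte and macrophage genes summed to 107 to 112 CPM on ISO day 1, against 118 to 133 CPM at the ISO baseline, with 2 genes higher and 4 lower. They summed to 56.8 to 79.5 CPM on LPS day 1, against 110 to 130 CPM at the LPS baseline, with 2 genes higher and 3 lower. The 4 smooth muscle genes summed to 363 to 665 CPM on ISO day 1, against 227 to 308 CPM at the ISO baseline, with 1 gene higher, 1 lower and a median log2 change of -0.21. They summed to 165 to 258 CPM on LPS day 1, against 250 to 298 CPM at the LPS baseline, with 3 of 4 genes lower. The sum of 6 endothelial genes lay between 669 and 926 CPM in every library. It was 825 to 852 CPM on ISO day 1, against 693 to 755 CPM at the ISO baseline, with 2 genes higher and 2 lower. It was 669 to 738 CPM on LPS day 1, against 711 to 784 CPM at the LPS baseline, also with 2 higher and 2 lower. The 6 erythroid genes summed to 138 to 388 CPM on ISO day 1, against 502 to 900 CPM at the ISO baseline. Of these, 4 were lower. On LPS day 1 they summed to 487 to 642 CPM, against 779 to 1185 CPM at the LPS baseline (0 of 6 called). Fibroblast genes summed to 586 to 657 CPM on ISO day 1, against 769 to 892 CPM at the ISO baseline. Of the 6, 1 was higher and 2 lower. On LPS day 1 they summed to 726 to 960 CPM, against 778 to 1053 CPM at the LPS baseline (1 higher, 4 lower). The part of these shifts in the day 1 results below was not tested, and in whole hearts fewer cells of a type and less RNA per cell cannot be told apart.

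One day after isoproterenol, 30 of the 37 genes had changed, 13 higher and 17 lower. Among all genes tested 65.7% were called, 32.9% higher and 32.8% lower, so a changed glucose gene was not unusual in itself. One day after LPS, 28 had changed, 8 higher and 20 lower, where 66.2% of all genes were called, 33.2% higher and 33.0% lower. The median log2 change of the 37 genes was -0.04 on ISO day 1 (-0.01 over all genes tested) and -0.30 on LPS day 1 (0.00 over all genes tested). In both arms the widely expressed transporter, the platelet-type phosphofructokinase, the inducible PFKFB3 and the lactate exporter MCT4 rose, while GLUT4, hexokinase 2, muscle phosphofructokinase, the heart-type PFKFB2 and muscle glycogen phosphorylase fell. Of the 24 genes called in both arms, 7 were higher in both (Slc2a1, Pfkp, Pfkfb3, Eno1, Ldha, Slc16a3 and Gbe1). Another 14 were lower in both (Slc2a4, Hk2, Pfkm, Pfkl, Pfkfb2, Tpi1, Pgam2, Eno3, Ldhb, Pdhb, Dlat, Pdk2, Pdp1 and Pygm). The remaining 3, Hk1, Slc16a1 and Ugp2, were higher with ISO and lower with LPS. The share of all genes called in both arms was not counted. These overlaps therefore describe the 37 genes and do not set them apart from other genes. Pfkfb4, Gapdh and Pdha1 were called in neither day 1 comparison.

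**Figure D1:**
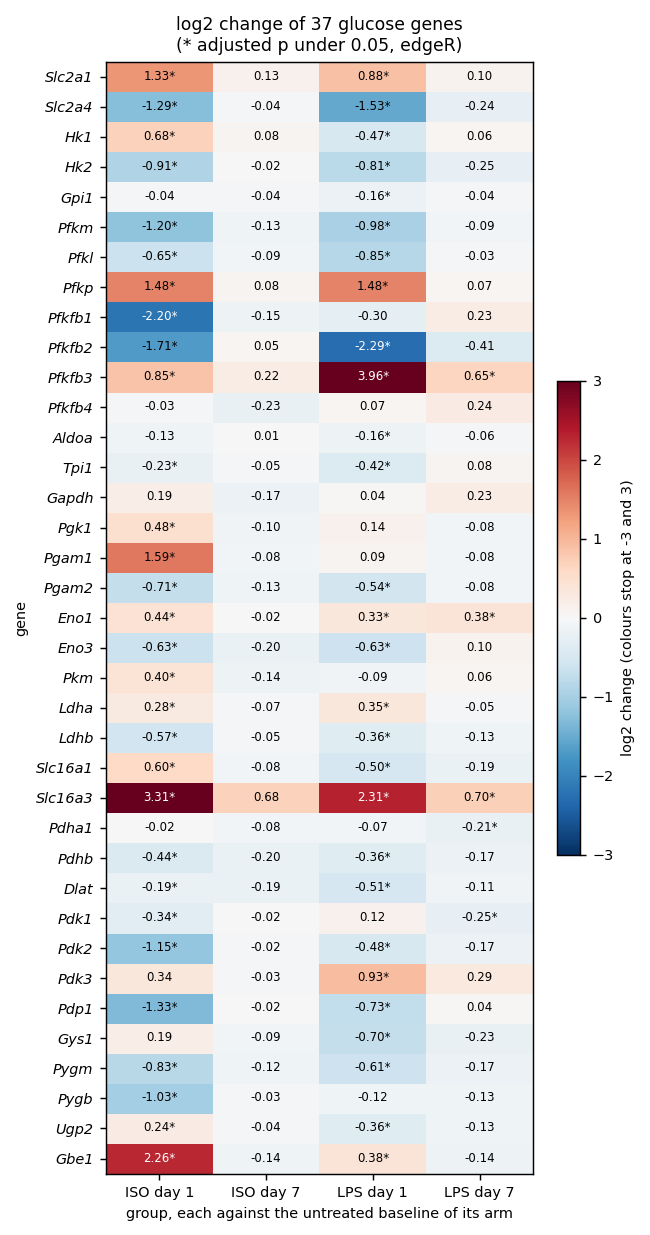
Log2 change of each of the 37 genes (rows, in pathway order) on ISO day 1, ISO day 7, LPS day 1 and LPS day 7, each against the untreated baseline of its arm. Red is higher and blue lower than baseline, colours stop at -3 and 3, and an asterisk marks an adjusted p under 0.05 by edgeR. The day 1 columns hold 30 and 28 called genes and the day 7 columns 0 and 5.

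The glucose transporters moved in opposite directions in both arms. Slc2a1 encodes GLUT1, the transporter of most cells. It stood at 49.2, 60.7 and 40.1 CPM on ISO day 1, against 21.98, 20.4, 19.8 and 17.6 CPM at the ISO baseline (log2 change 1.33 ± 0.17, adjusted p = 3.67e-07). In LPS day 1 hearts it stood at 32.9, 36.9, 19.0 and 22.2 CPM, against 14.2, 13.04, 15.1 and 17.6 CPM at the LPS baseline (0.88 ± 0.16, adjusted p = 4.94e-05). No treated heart overlapped its baseline, and the LPS day 1 hearts formed a higher pair (replicates 1 and 2) and a lower pair (replicates 3 and 4). Without the higher pair, an alternative chosen after seeing the data, the LPS change was 0.46 and still called. Slc2a4 encodes GLUT4, the insulin-responsive transporter of muscle and fat. It had 156, 133 and 187 CPM on ISO day 1, against 391.6, 383, 402 and 369 CPM at the ISO baseline (-1.29 ± 0.10, adjusted p = 3.2e-10). Slc2a4 had 121, 134, 125 and 156 CPM on LPS day 1, against 405, 393, 359 and 391.5 CPM at the LPS baseline (-1.53 ± 0.09, adjusted p = 3.02e-12). Every treated heart was below every baseline heart by a wide margin.

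Of the enzymes that make and reshape glucose phosphate, hexokinase 1 moved in opposite directions with the agents. Hk1, the hexokinase of brain and most tissues, had 354, 440 and 383 CPM on ISO day 1, against 248, 246, 245 and 240 CPM at the ISO baseline (0.68 ± 0.11, adjusted p = 7.67e-06). Hk1 had 149, 194, 156 and 181 CPM on LPS day 1, against 231, 251, 231 and 227 CPM at the LPS baseline (-0.47 ± 0.10, adjusted p = 0.000265). It was thus above baseline in all 3 ISO hearts and below baseline in all 4 LPS hearts. Hk2, the insulin-responsive hexokinase of muscle, had 216, 232 and 238 CPM on ISO day 1, against 433, 425, 441 and 416 CPM at the ISO baseline (-0.91 ± 0.10). Hk2 had 221, 262, 165 and 210 CPM on LPS day 1, against 384, 375, 362 and 385 CPM at the LPS baseline (-0.81 ± 0.09). Gpi1, which converts glucose phosphate to fructose phosphate, moved little: its log2 change was -0.04 on ISO day 1, not called, and -0.16 on LPS day 1, called at an adjusted p of 0.0131 and at 0.0544 without the higher LPS pair.

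Phosphofructokinase, the committed step, shifted between its subunits. The muscle subunit Pfkm had 419, 405 and 430 CPM on ISO day 1, against 1000, 944, 976 and 931 CPM at the ISO baseline (-1.20 ± 0.08, adjusted p = 3.39e-11). Pfkm had 451, 538, 405 and 453 CPM on LPS day 1, against 943, 929, 874 and 902 CPM at the LPS baseline (-0.98 ± 0.08, adjusted p = 1.45e-10). The liver-type subunit Pfkl also fell, with 89.9, 102 and 93.6 CPM on ISO day 1, against 149, 150, 143 and 155 CPM at the ISO baseline (-0.65 ± 0.07). Pfkl had 71.1, 74.6, 73.0 and 80.4 CPM on LPS day 1, against 132, 134, 134 and 139 CPM at the LPS baseline (-0.85 ± 0.06). The platelet-type subunit Pfkp went the other way. It had 125, 155 and 131 CPM on ISO day 1, against 49.7, 46.5, 48.3 and 51.9 CPM at the ISO baseline (1.48 ± 0.12, adjusted p = 2e-10), and the groups stood far apart. Pfkp had 147, 174, 119 and 134 CPM on LPS day 1, against 48.4, 52.4, 53.9 and 51.01 CPM at the LPS baseline (1.48 ± 0.11, adjusted p = 5.96e-11). Measured per length in TPM, Pfkp made up 23.3 ± 2.44% of the transcripts of the 3 subunits on ISO day 1 and 4.38 ± 0.18% at the ISO baseline (SD, n = 3 and 4). It made up 23.45 ± 0.316% on LPS day 1 and 5.395 ± 0.533% at the LPS baseline (SD, n = 4 each), while Pfkm remained the most abundant subunit in every group. An exon of Pfkp overlaps Pitrm1 on the other strand, which held 32 to 115% as many reads; Pitrm1 changed by 0.03 on ISO day 1, not called, and by 0.21 on LPS day 1.

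The PFKFB enzymes, which make or remove the activator of phosphofructokinase, gave the widest contrast between the agents. Pfkfb3, the inducible form with strong kinase activity, had 134, 118, 84.3 and 112 CPM on LPS day 1, against 7.03, 7.72, 7.42 and 6.53 CPM at the LPS baseline (3.96 ± 0.16, adjusted p = 1.64e-15). Pfkfb3 had 16.3, 16.6 and 12.5 CPM on ISO day 1, against 6.86, 8.34, 10.9 and 7.51 CPM at the ISO baseline (0.85 ± 0.17, adjusted p = 0.000106). The lowest LPS heart was thus far above every ISO heart. Pfkfb2, the form of heart muscle, fell to 9.19, 9.43 and 13.4 CPM on ISO day 1, against 36.5, 29.7, 41.1 and 31.5 CPM at the ISO baseline (-1.71 ± 0.18, adjusted p = 2e-08). Pfkfb2 had 5.32, 4.48, 8.15 and 9.64 CPM on LPS day 1, against 39.4, 35.3, 29.8 and 31.9 CPM at the LPS baseline (-2.29 ± 0.17, adjusted p = 5.36e-11). No treated heart overlapped its baseline for either gene. In TPM, Pfkfb3 made up 78.3 ± 4.59% of the 4 PFKFB genes on LPS day 1 and 8.42 ± 0.842% at the LPS baseline (SD, n = 4 each). It made up 35.8 ± 6.75% on ISO day 1 and 9.70 ± 1.97% at the ISO baseline (SD, n = 3 and 4). Pfkfb1, the form of liver and skeletal muscle, was scarce at 1.29, 1.63 and 1.33 CPM on ISO day 1, against 6.75, 6.25, 6.59 and 6.76 CPM at the ISO baseline (-2.20 ± 0.30, adjusted p = 9.15e-07). Pfkfb1 had 3.65, 3.19, 2.94 and 3.93 CPM on LPS day 1, against 4.27, 4.396, 4.46 and 3.84 CPM at the LPS baseline, with overlap and no call (-0.30 ± 0.25). Pfkfb1 shares exon sequence with Apex2 on the other strand, which held 46.1 to 281% as many reads and was called in neither arm. Pfkfb2 overlaps Yod1 on the other strand and Gm29427 on its own strand. Together these held up to 97.4% as many reads as Pfkfb2, and Yod1 rose by 0.65 on ISO day 1. Pfkfb4, a form known from testis and hypoxic cells, lay between 2.56 and 4.25 CPM in the day 1 and baseline hearts and was called in neither arm.

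**Figure D2:**
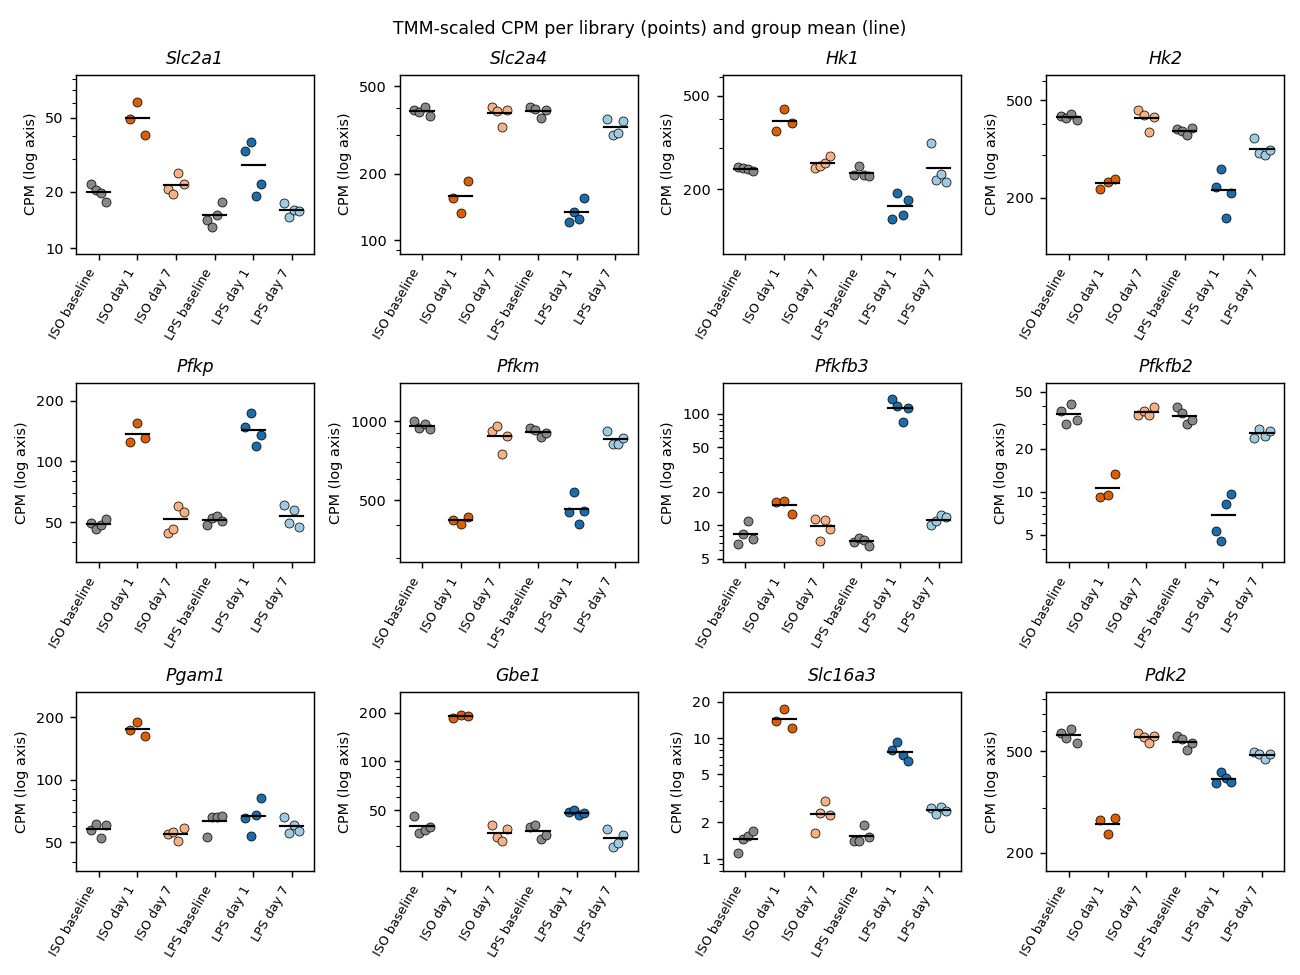
TMM-scaled CPM on a log axis for 12 of the genes, each point 1 heart and each line a group mean, in the order baseline, day 1 and day 7 for ISO and then LPS. Slc2a1, Pfkp and Slc16a3 rise on day 1 in both arms while Slc2a4, Hk2, Pfkm and Pfkfb2 fall. Pgam1 and Gbe1 rise far more with ISO, Pfkfb3 far more with LPS, and Hk1 moves in opposite directions.

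In lower glycolysis, 4 of 9 genes rose and 3 fell on ISO day 1, where 32.9% of all genes were higher and 32.8% lower. On LPS day 1, 1 of the 9 rose and 4 fell, where 33.2% of all genes were higher and 33.0% lower. Phosphoglycerate mutase showed the widest change. Pgam1, its non-muscle form, had 174, 190 and 162 CPM on ISO day 1, against 57.5, 61.5, 52.7 and 60.9 CPM at the ISO baseline (1.59 ± 0.10, adjusted p = 1.09e-11). Pgam1 had 65.4, 53.8, 67.9 and 81.8 CPM on LPS day 1, against 53.3, 66.2, 66.5 and 66.6 CPM at the LPS baseline, with overlap and no call (0.09 ± 0.10). Pgam2, the muscle form, fell to 245, 210 and 280 CPM on ISO day 1, against 418, 387, 397 and 404 CPM at the ISO baseline (-0.71 ± 0.08). Pgam2 had 254, 297, 254 and 273 CPM on LPS day 1, against 427, 404, 361 and 380 CPM at the LPS baseline (-0.54 ± 0.08). Of the enolases, the ubiquitous gene rose and the muscle gene fell in both arms. Eno1, the ubiquitous enolase, had 152, 172 and 162 CPM on ISO day 1, against 122, 125, 111 and 119 CPM at the ISO baseline (0.44 ± 0.08, adjusted p = 4.83e-05). Eno1 had 142, 154, 127 and 131 CPM on LPS day 1, against 106, 109, 110 and 114 CPM at the LPS baseline (0.33 ± 0.08, adjusted p = 0.000476). With effective-length offsets the Eno1 changes were 0.23 on ISO day 1, still called, and 0.12 on LPS day 1, not called. Eno3, the muscle enolase, stood at 655, 586 and 682 CPM on ISO day 1, against 1031, 989, 1022 and 934 CPM at the ISO baseline (-0.63 ± 0.10). Eno3 stood at 567.5, 702, 517 and 492 CPM on LPS day 1, against 928, 924, 821 and 846 CPM at the LPS baseline (-0.63 ± 0.09). Pgk1, which makes the first ATP of the payoff phase, rose by 0.48 ± 0.07 and Pkm, pyruvate kinase of muscle and other tissues, by 0.40 ± 0.08 on ISO day 1, and neither was called on LPS day 1. Tpi1, which interconverts the triose phosphates, fell by 0.23 on ISO day 1 and by 0.42 on LPS day 1. Aldoa, the muscle aldolase, changed by -0.13 on ISO day 1, not called, and by -0.16 on LPS day 1. Its LPS call was at an adjusted p of 0.0319 and was lost when any of 6 single libraries was left out, with adjusted p of 0.0504 to 0.11 (LPS day 1 replicates 1, 3 and 4 and LPS baseline replicates 2, 3 and 4). Gapdh, often used as a reference gene, ran from 698 to 1257 CPM in the day 1 and baseline hearts and was called on neither day 1. Reads of Gapdh, Pgk1 and Eno1 are uncertain, because other genes sharing stretches of 75 bases with them held 59 to 74.5%, 31.7 to 45.9% and 13.9 to 25% as many reads.

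At the lactate step, the gene with the largest ISO increase of the 37 was the exporter MCT4. Slc16a3, which encodes it and is known from glycolytic muscle and hypoxic cells, had 13.8, 17.3 and 12.1 CPM on ISO day 1, against 1.11, 1.46, 1.56 and 1.71 CPM at the ISO baseline (3.31 ± 0.18, adjusted p = 4.34e-13). Slc16a3 had 7.96, 9.31, 7.20 and 6.46 CPM on LPS day 1, against 1.41, 1.41, 1.895 and 1.503 CPM at the LPS baseline (2.31 ± 0.17, adjusted p = 6.12e-11). Per length in TPM it stayed below Slc16a1, which encodes MCT1, the lactate carrier of heart muscle, in every group. Slc16a1 had 305, 290 and 328 CPM on ISO day 1, against 189, 208, 201 and 214 CPM at the ISO baseline (0.60 ± 0.11), all ISO hearts higher. Slc16a1 had 119, 134, 151 and 174 CPM on LPS day 1, against 192, 209, 203 and 212 CPM at the LPS baseline (-0.50 ± 0.10), all LPS hearts lower. Of the lactate dehydrogenase subunits, Ldha, which predominates in tissues that make lactate, had 609, 572 and 632 CPM on ISO day 1, against 517.6, 493, 491 and 489 CPM at the ISO baseline (0.28 ± 0.09). Ldha had 572, 677, 452 and 519 CPM on LPS day 1, against 437, 438, 435 and 436 CPM at the LPS baseline (0.35 ± 0.09). The LPS increase was 0.15, no longer called, without the pair of replicates 1 and 2. Ldhb, the heart subunit, had 843, 803 and 919 CPM on ISO day 1, against 1333, 1221, 1328 and 1200 CPM at the ISO baseline (-0.57 ± 0.09). Ldhb had 925, 1124, 846 and 953 CPM on LPS day 1, against 1335, 1280, 1153 and 1186 CPM at the LPS baseline (-0.36 ± 0.08).

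The pyruvate dehydrogenase step had 5 genes lower and 0 higher on ISO day 1, and 4 lower and 1 higher on LPS day 1, of 7, where 32.8% of all genes were lower on ISO day 1 and 33.0% on LPS day 1. Pdk2, which per length in TPM exceeded Pdk1 and Pdk3 in every group, had 268, 238 and 272 CPM on ISO day 1, against 590, 565, 612 and 538 CPM at the ISO baseline (-1.15 ± 0.06, adjusted p = 8.06e-13). Pdk2 had 374, 415, 394 and 378 CPM on LPS day 1, against 573, 557, 507 and 538 CPM at the LPS baseline (-0.48 ± 0.06, adjusted p = 1.53e-07). Its opponent Pdp1, the phosphatase that reactivates the complex, fell as well, to 11.0, 13.4 and 12.3 CPM on ISO day 1, against 31.0, 31.5, 31.1 and 29.5 CPM at the ISO baseline (-1.33 ± 0.07, adjusted p = 3.11e-13). Pdp1 had 16.5, 17.5, 17.8 and 16.9 CPM on LPS day 1, against 30.3, 26.8, 27.8 and 29.2 CPM at the LPS baseline (-0.73 ± 0.06, adjusted p = 5.55e-10). Kinase and phosphatase thus stood below every baseline heart in both arms. Pdk1, the hypoxia-responsive kinase, had 123, 111 and 130 CPM on ISO day 1, against 150, 158, 159 and 149 CPM at the ISO baseline (-0.34 ± 0.07). Pdk1 had 166, 182, 160 and 166 CPM on LPS day 1, against 157, 153, 157 and 152 CPM at the LPS baseline, and the change of 0.12 ± 0.06 was not called. Pdk3, a minor kinase in heart, had 2.68, 2.59, 3.15 and 3.38 CPM on LPS day 1, against 1.88, 1.57, 1.30 and 1.42 CPM at the LPS baseline (0.93 ± 0.18, adjusted p = 7.79e-05). Pdk3 had 2.46, 1.57 and 1.92 CPM on ISO day 1, against 1.85, 1.41, 1.59 and 1.33 CPM at the ISO baseline, with overlap and no call (0.34 ± 0.20). Of the subunits, Pdhb fell by 0.44 on ISO day 1 and by 0.36 on LPS day 1, and Dlat fell by 0.19 and by 0.51. The ISO call of Dlat was lost when ISO baseline replicate 1 or ISO day 1 replicate 1 or 2 was left out (adjusted p = 0.0751 to 0.0873). Pdha1, the catalytic subunit, was called in neither.

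Glycogen genes changed most at branching and least at synthesis on ISO day 1. Gbe1, the branching enzyme, had 186, 193 and 191 CPM on ISO day 1, against 45.8, 36.3, 37.4 and 39.5 CPM at the ISO baseline (2.26 ± 0.09, adjusted p = 7.94e-15). Gbe1 had 48.3, 49.8, 46.9 and 47.6 CPM on LPS day 1, against 39.0, 40.5, 33.0 and 35.2 CPM at the LPS baseline (0.38 ± 0.09, adjusted p = 0.000476). Both increases left the groups apart, and the ISO hearts lay within a narrow band. Pygb, the brain-type phosphorylase, which the heart also expresses, had 451, 382 and 431 CPM on ISO day 1, against 877, 845, 886 and 827 CPM at the ISO baseline (-1.03 ± 0.08, adjusted p = 1.1e-10). Pygb had 648, 613, 755 and 714 CPM on LPS day 1, against 760, 760, 699 and 755 CPM at the LPS baseline, with overlap and no call (-0.12 ± 0.07). Pygm, the muscle phosphorylase, had 801, 765 and 843 CPM on ISO day 1, against 1527, 1409, 1422 and 1340 CPM at the ISO baseline (-0.83 ± 0.08). Pygm had 845, 1005, 792 and 836 CPM on LPS day 1, against 1377, 1384, 1264 and 1292 CPM at the LPS baseline (-0.61 ± 0.07). Gys1, the muscle glycogen synthase, fell by 0.70 ± 0.11 on LPS day 1 and changed by 0.19 ± 0.11 on ISO day 1, not called. Ruvbl2, which overlaps Gys1 on the other strand with 9.17 to 16.8% as many reads, fell by 0.73 on LPS day 1 too, and its part in the Gys1 value was not tested. Ugp2, which makes the glucose donor for glycogen, rose by 0.24 on ISO day 1 and fell by 0.36 on LPS day 1. The ISO increase of Ugp2 was 0.10, no longer called, without ISO day 1 replicate 3.

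The difference between the agents, each against its own baseline, was tested directly. It was called for 16 of the 37 genes, where 37.6% of all genes were called. The change was higher with ISO in 10 of them (19.5% of all genes) and lower with ISO in 6 (18.2%). Toward ISO stood Gbe1 (difference 1.87 ± 0.13), Pgam1 (1.5 ± 0.14), Hk1 (1.15 ± 0.15), Slc16a1 (1.09 ± 0.15) and Slc16a3 (1.00 ± 0.25). Smaller differences toward ISO were those of Gys1 (0.90), Ugp2 (0.60), Pkm (0.50), Pgk1 (0.35) and Dlat (0.32). Toward LPS stood Pfkfb3 (-3.11 ± 0.23) and the genes that stood lower with ISO than with LPS, which were Pfkfb1 (-1.9 ± 0.39), Pygb (-0.90 ± 0.10), Pdk2 (-0.67 ± 0.09), Pdp1 (-0.60 ± 0.09) and Pdk1 (-0.47 ± 0.09). The equal-sized increase of Pfkp gave a difference of -0.00 ± 0.16 and the fall of Hk2 one of -0.09 ± 0.14. Slc2a1 differed by 0.44 ± 0.23 (adjusted p = 0.145) and Slc2a4 by 0.24 ± 0.14 (adjusted p = 0.173), neither past the threshold. The difference of Slc2a1 was 0.61 and called without LPS day 1 replicate 2, 0.87 without LPS day 1 replicates 1 and 2, and 0.86 with pooled baselines. That of Pfkfb1 was -1.26 with pooled baselines. That of Slc16a3 was 1.66 with effective-length offsets. Agent, dose and arm were given together, so an effect of the agent cannot be told apart from one of its dose.

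**Figure D3:**
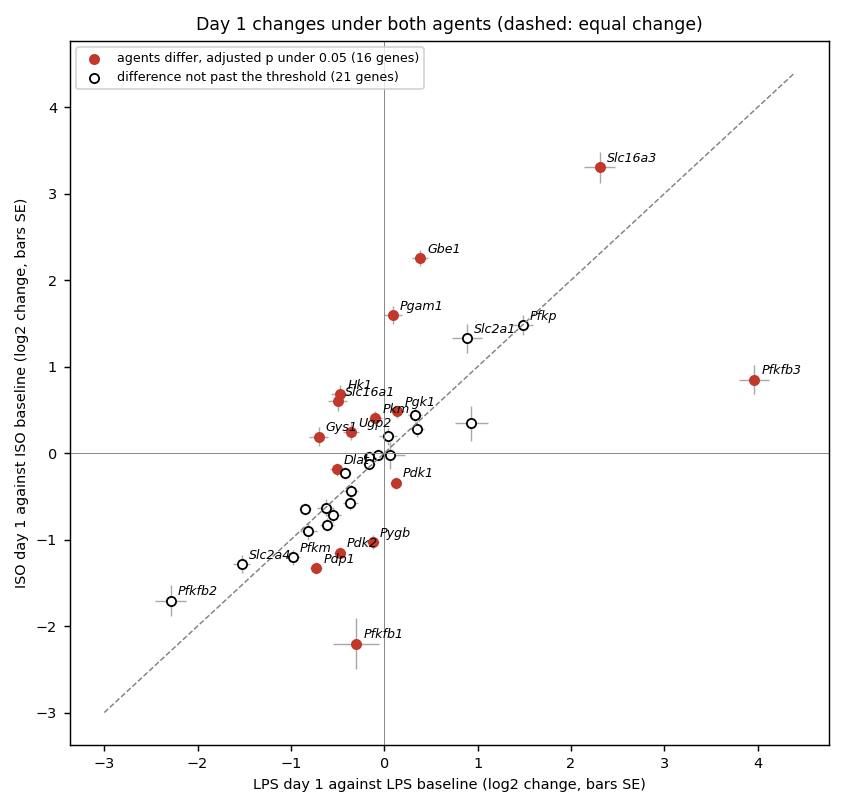
Log2 change on day 1 with ISO (vertical) against that with LPS (horizontal) for the 37 genes, bars giving the standard error and the dashed line equal change. The 16 filled points differ between agents at an adjusted p under 0.05, with Gbe1 and Pgam1 far above the line and Pfkfb3 far below it.

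By day 7 the ISO hearts showed no called glucose gene (0 of 37 by edgeR and 0 by DESeq2), where 0.00636% of all genes were called by edgeR. At an unadjusted p under 0.05 in edgeR there were 4 of the 37, and 863 of all 15732 genes. Slc16a3 had the largest of these ISO day 7 changes, with 1.63, 2.38, 3.02 and 2.31 CPM, against 1.11, 1.46, 1.56 and 1.71 CPM at the ISO baseline (0.68 ± 0.19, adjusted p = 0.709). In the LPS arm 5 of 37 were called, where 9.10% of all genes were called, 3 higher (5.96% of all) and 2 lower (3.13% of all). With library totals in place of TMM, which moved the median of all genes to 0.16, 7 were higher and 0 lower. Pfkfb3 stood at 10.0, 10.9, 12.2 and 11.9 CPM on LPS day 7, against 7.03, 7.72, 7.42 and 6.53 CPM at the LPS baseline (0.65 ± 0.16, adjusted p = 0.0123). Slc16a3 stood at 2.65, 2.33, 2.67 and 2.49 CPM on LPS day 7, against 1.41, 1.41, 1.895 and 1.503 CPM at the LPS baseline (0.70 ± 0.18, adjusted p = 0.0185). In CPM these inducible genes thus remained above every baseline heart. Eno1 stood at 167, 127, 139 and 139 CPM on LPS day 7, against 106, 109, 110 and 114 CPM at the LPS baseline (0.38 ± 0.08, adjusted p = 0.00284). Pdk1 fell to 119, 135, 122 and 144 CPM on LPS day 7, against 157, 153, 157 and 152 CPM at the LPS baseline (-0.25 ± 0.06, adjusted p = 0.0132). Pdha1 fell to 805, 787, 769 and 791 CPM on LPS day 7, against 943, 945, 873 and 888 CPM at the LPS baseline (-0.21 ± 0.07, adjusted p = 0.0445). In CPM all 5 separated the groups, a share that was not counted over all genes. Per length in TPM, Slc16a3, Pdk1 and Pdha1 overlapped the LPS baseline, and the TPM of 28.2% of all genes did not overlap. With library totals the changes of Pdk1 and Pdha1 were -0.09 and -0.05, neither called. Only Eno1 was still called without LPS day 7 replicate 3. A fit with the replicate number as a block left Pdha1 at an adjusted p of 0.0593. The Slc16a3 change was 0.21 and not called with effective-length offsets. Slc16a3 also lost its call without LPS baseline replicate 1 or 2 (adjusted p = 0.0631 for each). Pdha1 lost its call without any single library of either group other than LPS baseline replicate 3 (adjusted p = 0.0628 to 0.131). Macrophage markers moved on the same day in the LPS arm, with a sum of 199 to 250 CPM on LPS day 7, against 110 to 130 CPM at the LPS baseline and 8 of 8 genes higher, and 6 fibroblast genes summed to 1223 to 1366 CPM, against 778 to 1053 CPM at the LPS baseline, with 0 of 6 called by edgeR and 1 at an unadjusted p under 0.05. Their part in these values was not tested. The difference between the agents on day 7 was called for 0 of the 37 by edgeR (1, Eno1, by DESeq2), where 0.458% of all genes were called by edgeR. At an unadjusted p under 0.05 in edgeR there were 6 of the 37, and 1488 of all 15732 genes.

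Set directly against day 1, day 7 moved most genes back. In the ISO arm 31 of 37 differed between day 7 and day 1, where 65.1% of all genes did, and 29 of the 30 genes called on day 1 were called in the opposite direction, Dlat being the exception. In the LPS arm 28 of 37 differed, where 66.4% of all genes did, and 26 of the 28 genes called on day 1 were called in the opposite direction, the exceptions being Aldoa and Eno1. Both comparisons of an arm use its day 1 hearts, so a return and the change it reverses are not independent. The share of all genes called on day 1 that moved back was not counted. A return particular to the glucose genes therefore cannot be read from these counts. Pfkfb3 was lower on LPS day 7 than on LPS day 1 by 3.31 ± 0.15 (log2 change -3.31), and Gbe1 changed by -2.39 ± 0.09 on ISO day 7 against ISO day 1. The untreated groups were also compared. At an unadjusted p under 0.05 in edgeR, 7 of the 37 differed between the 2 baselines, and 1701 of all 15732 genes. After adjustment 1 of 37 differed between the ISO baseline and the LPS baseline, where 1.21% of all genes did. This was Gapdh, with 1185, 1012, 1062 and 980 CPM at the ISO baseline, against 877, 813, 721 and 762 CPM at the LPS baseline (0.42 ± 0.09, adjusted p = 0.0233), and the call was lost without ISO baseline replicate 1 or 3 or LPS baseline replicate 2, 3 or 4 (adjusted p = 0.0553 to 0.118).

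Within a library, the ratio of a widely expressed or inducible gene to its muscle or heart partner does not depend on the scaling between libraries. Some pairs share their second gene (Pfkm, Pfkfb2 or Pdk2), so their ratios are not independent of one another. Of 14 such TPM ratios, 13 did not overlap between ISO day 1 and the ISO baseline, 12 of them higher and 1 lower. Among all genes tested, the TPM of 59.5% did not overlap in this comparison, a share of single genes and not of ratios. On LPS day 1, 12 did not overlap the LPS baseline, and all 12 were higher, where the TPM of 49.5% of all genes did not overlap. Slc2a1 over Slc2a4 was 0.264, 0.385 and 0.177 on ISO day 1, against 0.0440, 0.0401, 0.0384 and 0.0366 at the ISO baseline, and 0.224, 0.234, 0.124 and 0.120 on LPS day 1, against 0.0274, 0.0275, 0.0348 and 0.0371 at the LPS baseline. Every day 1 heart stood well above its baseline. Hk1 over Hk2 was 2.175, 2.58 and 2.14 on ISO day 1, against 0.804, 0.771, 0.753 and 0.790 at the ISO baseline, so that the non-muscle hexokinase became the more abundant one per length. On LPS day 1 Hk1 over Hk2 was 0.970, 1.07, 1.36 and 1.25, against 0.845, 0.912, 0.926 and 0.820 at the LPS baseline, although both genes fell in CPM. Hk1 thus exceeded Hk2 in every ISO day 1 heart and in all LPS day 1 hearts but replicate 1. Pfkp over Pfkm was 0.314, 0.418 and 0.343 on ISO day 1, against 0.0505, 0.0504, 0.0497 and 0.0551 at the ISO baseline, and 0.347, 0.339, 0.341 and 0.355 on LPS day 1, against 0.0573, 0.0586, 0.0668 and 0.0719 at the LPS baseline. Pfkfb3 over Pfkfb2 was 12.3, 11.2, 5.17 and 6.60 on LPS day 1, against 0.102, 0.125, 0.143 and 0.127 at the LPS baseline, a difference of 6.07 on the log2 scale. On ISO day 1 it was 1.12, 0.999 and 0.541, against 0.118, 0.199, 0.165 and 0.141 at the ISO baseline. On LPS day 1 the inducible PFKFB form outnumbered the heart form in every heart. Pgam1 over Pgam2 was 0.309, 0.400 and 0.255 on ISO day 1, against 0.0602, 0.0697, 0.0580 and 0.0654 at the ISO baseline, while on LPS day 1 one heart reached into the baseline range. Ldha over Ldhb was 0.578, 0.572 and 0.554 on ISO day 1, against 0.310, 0.324, 0.297 and 0.324 at the ISO baseline, and 0.500, 0.490, 0.437 and 0.440 on LPS day 1, against 0.264, 0.275, 0.306 and 0.300 at the LPS baseline. The lactate dehydrogenase ratio was higher without overlap in both arms. Pdk1 over Pdk2 was 0.219, 0.216 and 0.218 on ISO day 1, against 0.115, 0.129, 0.119 and 0.127 at the ISO baseline, and 0.203, 0.199, 0.205 and 0.207 on LPS day 1, against 0.124, 0.123, 0.141 and 0.131 at the LPS baseline. The exception in direction was Pygb over Pygm, at 0.392, 0.345 and 0.364 on ISO day 1, against 0.3975, 0.422, 0.432 and 0.434 at the ISO baseline, and at 0.462, 0.381, 0.589 and 0.519 on LPS day 1, against 0.319, 0.345, 0.348 and 0.366 at the LPS baseline.

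No ratio passed the threshold after adjustment when set against the baseline of its own arm. A two-sided exact permutation test of 3 against 4 libraries cannot go below 0.0571, and one of 4 against 4 cannot go below 0.0286. Each non-overlapping day 1 ratio reached that limit, and over the 56 tests of the family the adjusted values were 0.0914 on ISO day 1 and 0.0889 on LPS day 1. The sizes were 0.57 to 2.79 on the log2 scale for the 12 higher ratios of ISO day 1 and 0.40 to 6.07 for those of LPS day 1. With pooled baselines (8 hearts of both arms), the exact tests allow smaller p. Pooling takes the 2 baselines as alike. Yet their ratios did not overlap for Hk1/Hk2, Pfkp/Pfkm, Pfkfb1/Pfkfb2 and Pygb/Pygm, while those of the other pairs did. Pfkp over Pfkm, for example, was 0.0497 to 0.0551 at the ISO baseline and 0.0573 to 0.0719 at the LPS baseline. Treatment and arm are thus not fully separated in the pooled tests. On ISO day 1 all ratios but Pfkfb1/Pfkfb2 and Pygb/Pygm then had an adjusted p of 0.0242. On LPS day 1 all but Pfkl/Pfkm and Pygb/Pygm had 0.0151 or 0.0242. Some day 7 ratios passed too, among them Pfkfb3/Pfkfb2 with LPS (0.0151). On day 7, 2 of 14 ratios did not overlap the baseline in the ISO arm, where the TPM of 2.59% of all genes did not. In the LPS arm 4 of 14 did not overlap, near the 28.2% of all genes, among them Pfkfb3 over Pfkfb2, higher by 1.00. The others were Pfkfb1 and Pfkfb4 over Pfkfb2 and Hk1 over Hk2. All but the last share Pfkfb2, so the count is not one of independent ratios.

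**Figure D4:**
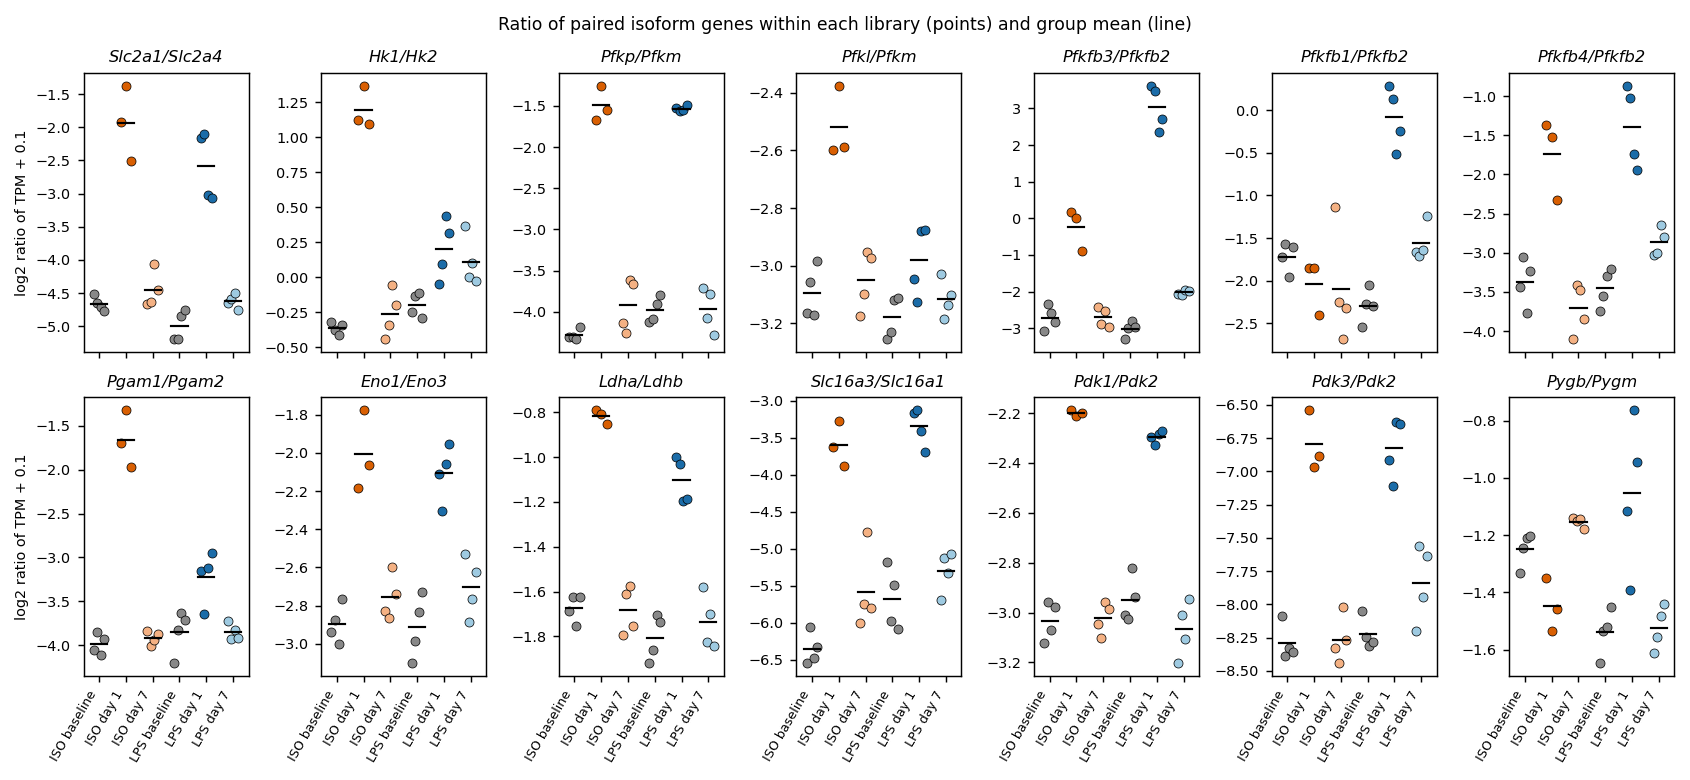
Log2 ratio of TPM (with 0.1 added to each) of the first over the second gene of 14 pairs, each point 1 heart and each line a group mean, in the order baseline, day 1 and day 7 for ISO and then LPS. The day 1 points stand above their baseline without overlap in 12 pairs in each arm, and Pygb/Pygm stands below it on ISO day 1.

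Among other genes of glucose and glycogen metabolism, outside the 37, more fell than rose on day 1 in both arms. Of 42 tested (48 listed), 8 were higher and 20 lower on ISO day 1, with a median of -0.18, and 7 were higher and 23 lower on LPS day 1, with a median of -0.25, where the medians over all genes tested were -0.01 and 0.00. Among all genes 32.9% were higher and 32.8% lower on ISO day 1, and 33.2% and 33.0% on LPS day 1. On ISO day 1 those with the smallest adjusted p were Phka1, the muscle regulatory subunit of phosphorylase kinase (1.60 ± 0.09), Pgm5, a phosphoglucomutase relative of muscle attachment sites (-1.15 ± 0.07), Epm2a, the glycogen phosphatase laforin (-1.16 ± 0.08), and Phkb, another phosphorylase kinase subunit (-0.95 ± 0.08). On LPS day 1 they included Pgm5 (-1.34 ± 0.07) and the glycogen-targeting phosphatase subunits Ppp1r3c (-2.23 ± 0.12) and Ppp1r3a (1.78 ± 0.12). Pdk4, the fasting and fatty acid responsive kinase of pyruvate dehydrogenase, is named here after its values were seen. It averaged 3970 ± 402 CPM on ISO day 1 and 186 ± 125 CPM at the ISO baseline (SD, n = 3 and 4), a log2 change of 4.42 ± 0.49. It averaged 4700 ± 1051 CPM on LPS day 1 and 229 ± 42.4 CPM at the LPS baseline (SD, n = 4 each), a change of 4.36 ± 0.48. Set beside the fall of Pdk2, the kinase transcripts of this step thus moved apart in both arms.

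The branches that leave glycolysis were counted in the same way, beside 32.9% of all genes higher and 32.8% lower on ISO day 1 and 33.2% higher and 33.0% lower on LPS day 1. Of 14 pentose phosphate and hexosamine genes, 9 were higher and 3 lower on ISO day 1, and 6 higher and 4 lower on LPS day 1, with medians of 0.46 and 0.18. On ISO day 1 the smallest adjusted p belonged to Uap1 (1.08 ± 0.07) and Gfpt2 (2.07 ± 0.20) of the hexosamine route and Taldo1 (1.30 ± 0.10) and Pgd (1.37 ± 0.12) of the pentose route. In the LPS arm they belonged to Rpia (-1.12 ± 0.09), G6pdx, the entry enzyme of the pentose route (1.32 ± 0.11), Gfpt2 (1.27 ± 0.19) and Ogt, which attaches the hexosamine product to proteins (-0.45 ± 0.08). The difference between the agents was called for 8 of these genes, where 37.6% of all genes were called. It was higher with ISO in 7 (19.5% of all genes).

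Of 19 transcription regulators linked to glucose genes, 10 were higher and 4 lower on ISO day 1. Among all genes 32.9% were higher and 32.8% lower. The list was led by Nr4a3 (3.75 ± 0.27), Arrdc4 (1.73 ± 0.14), Mlxip (0.85 ± 0.07) and Myc (3.34 ± 0.31). With LPS, 9 were higher and 7 lower on day 1, where 33.2% of all genes were higher and 33.0% lower. The LPS list was led by Arrdc4 (2.17 ± 0.13), Esrrg (-2.14 ± 0.14), Esrra (-1.44 ± 0.10) and Txnip (2.16 ± 0.18). The medians of the regulators were 0.24 on ISO day 1 and 0.26 on LPS day 1. Arrdc4 and Txnip encode arrestin relatives that limit glucose uptake, and Esrra and Esrrg encode nuclear receptors that drive oxidative metabolism in heart muscle. Of 15 hypoxia-responsive genes outside glucose metabolism, 6 were higher and 6 lower on ISO day 1, with Kdm3a (0.85) and Ero1l (0.72) up and Egln1 (-0.68) and Vegfa (-0.81) down among the smallest adjusted p. On LPS day 1, 4 were higher and 7 lower, with Kdm3a (0.78) up and Vegfa (-1.55), P4ha2 (-1.11) and P4ha1 (-1.07) down. The medians of this list were -0.11 on ISO day 1 and -0.12 on LPS day 1. Its counts stand beside the same shares of all genes as those of the regulators.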

How the data were processed

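Poly-A RNA-seq of 23 whole mouse hearts in 6 labelled groups was used. The authors deposited, per the file headers, estimated counts of reads per gene, TPM (already divided by length) and the effective length, used here for offsets alone. Among the tools that the submitters' processing notes list without versions are DRAGEN, bcl2fastq, limma and edgeR, with the build mm10. The strand setting, like the annotation release, is not given in the sources used here, so genes overlapping on opposite strands cannot be separated. Symbols came from GENCODE M21 on GRCm38, where 55141 of the 55487 identifiers were found.

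The deposited estimated counts (9.50% of values not whole) were rounded and tested with edgeR 4.0.16 under R 4.3.3: filterByExpr with a minimum count of 10, TMM scaling, and a quasi-likelihood fit (glmQLFit, glmQLFTest) with a mean for each of the 6 groups. The p-values are two-sided, with Benjamini-Hochberg adjustment over 15732 genes. The common biological coefficient of variation was 11.0%. Isoform ratios were of TPM + 0.1 and were compared by exact permutation tests in scipy 1.17.1 (Python 3.11.15). Symbols of Aldoa matched 2 identifiers, and the one with at most 6 reads per library was left out. Library pairs of a group differed beyond sampling noise (chi-square divided by its degrees of freedom, 4.22 to 48.5), and each counts as 1 sample. The libraries are labelled as replicates of a group and were taken here as hearts of separate mice. The p-values measure the spread between these hearts.

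The members and gene lists were chosen with earlier results of these data known. Values per heart are given for members called with an absolute log2 change of at least 1 on day 1, members called on day 7, and both genes of the isoform pairs described. For each other list, up to 4 genes with the smallest adjusted p on day 1 are named, and 1 gene that this rule selects is not reported here. Alternatives were RLE scaling, library totals, DESeq2 1.42.0, other count filters, the compared groups alone, a replicate block, log2(TPM + 0.1) with limma 3.58.1, effective-length offsets, pooled baselines and leaving out each library. Leaving out pairs of LPS day 1 hearts was added after seeing the data. The procedure was tested on simulated data.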

Additional observations from a re-analysis of the deposited data

Results flagged for a closer look

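The effect of ISO on day 1 differed from that of LPS for 16 genes by the test of the difference itself (log2, ISO change minus LPS change). The differences were 1.87 for Gbe1, 1.5 for Pgam1, 1.15 for Hk1, 1.09 for Slc16a1, 1.00 for Slc16a3, 0.90 for Gys1, 0.60 for Ugp2, 0.50 for Pkm, 0.35 for Pgk1 and 0.32 for Dlat. They were -3.11 for Pfkfb3, -1.9 for Pfkfb1, -0.90 for Pygb, -0.67 for Pdk2, -0.60 for Pdp1 and -0.47 for Pdk1.

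A single library stood far from the others of its group in 6 of the 185 groups of 4 examined, where chance marks about 1 in 20. Replicate 1 of LPS day 7 was high for Hk1 (316.2 CPM, the others 214.9 to 231.4) and for Ldha (484.5 CPM, the others 396.5 to 403.7). Replicate 1 of the ISO baseline was high for Gpi1 (607.6 CPM, the others 540.6 to 549.3) and for Ldha (517.6 CPM, the others 489.2, 491 and 493). Replicate 1 of the LPS baseline was low for Pgam1 (53.3 CPM, the others 66.2 to 66.6), and replicate 3 of the LPS baseline was low for Pygb (698.6 CPM, the others 755 to 759.9).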

How the results depend on the processing

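The day 1 counts of 30 genes with ISO and 28 with LPS stayed within 29 to 31 and 27 to 32 under every alternative run, and each of the 16 day 1 differences between agents kept its call. That count of 16 was 25 with pooled baselines. The 5 genes of LPS day 7 were 13 with the compared groups alone and 12 with pooled baselines, and 1 to 6 with a library left out, the lowest without LPS day 7 replicate 3. The 0 day 7 differences between agents became 3 with library totals, 1 with DESeq2, 4 with log2(TPM + 0.1) and limma and 6 with pooled baselines, and were 0 to 1 with a library left out. The 1 gene between the baselines became 6 with the compared groups alone and was 0 to 1 with a library left out. Ratios free of overlap on ISO day 7 (2) numbered 1 as estimated counts and 1 with pooled baselines, and 2 to 4 with a library left out. Those of LPS day 7 (4) numbered 7 as estimated counts. With log2(TPM + 0.1) and limma, Gpi1 on LPS day 7 turned to 0.22, and Pygb and Pgk1 on LPS day 7 against LPS day 1 to 0.24 and 0.029. Deviations of same-numbered libraries from their group means correlated at -0.118 to 0.082. No pairing by number was thus seen, though such values cannot settle what the numbers mark. With the replicate block the counts were 30, 28 and 4 for ISO day 1, LPS day 1 and LPS day 7. For each change listed here the cause was not tested. The number of hearts in a group, not the read depth, sets the smallest p that the exact ratio tests can give.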
